A study of Mus musculus with 4 samples.

Results

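The chemokine receptors examined here were Ccr1, Ccr2, Ccr3, Ccr7, Ccrl2, Cx3cr1 and Cxcr4, a set of 7 among the 23658 genes that the arrays measured under a gene symbol. They were taken by name from the array annotation, which gave them 8 of the 55681 non-control probes. Cx3cr1 had 2 probes and each of the others had 1. RNA came from bone marrow-derived macrophages (BMDMs) of 10-week-old C57BL/6J mice, grown for 6 days in medium with L929 cell supernatant and then stimulated for 2 days. M1 BMDMs (genotype wild type) received IFNg at 20 ng per ml with LPS at 100 ng per ml, and M2 BMDMs (wild type) received IL-4 at 50 ng per ml. Lamtor1-deficient M2 BMDMs, labelled p18 (2400001E08Rik) -/-, received IL-4 at the same dose, and Torin1-treated M2 BMDMs (wild type) received IL-4 together with 250 nM of Torin1, an inhibitor of the kinase mTOR. In the study's methods, Lamtor1 was removed by a Cre driven from the myeloid LysM promoter acting on floxed alleles, so that only cells expressing this Cre lose the gene. The methods give littermates with floxed alleles and no Cre as controls of the line, whereas the labels call the other 3 cultures wild type, and how many mice stood behind a culture is not given in the sources used here. Each condition was measured on 1 Agilent array in 1 colour, so no difference between them has a replicate check or a test, and every value is limited by the number of arrays.

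Chemokine receptors are G protein-coupled receptors on the cell surface that bind small secreted chemokines and steer cell migration along their gradients. In the monocyte and macrophage lineage, Ccr2 directs the exit of inflammatory monocytes from bone marrow, Cx3cr1 is a fractalkine receptor of resident and patrolling cells, and Cxcr4 holds cells in marrow niches. Ccrl2 is an atypical member that binds chemerin and presents it without driving classical signalling. Signals end in G protein subunits, PI3 kinase gamma and the Rac activator Dock2, and are limited by receptor kinases, arrestins and RGS proteins.

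Values are the scanner's processed signals, and normalized signals are these divided by the 75th percentile of the array, or 595 for M2 and 287 for M1 BMDMs, and 536 and 470.0 for the Lamtor1-deficient and Torin1-treated arrays. A probe is called well above background by a flag of the scanner software. The dimmest such signal was 21.6 on the M2, 18.8 on the M1, 20.1 on the Lamtor1-deficient and 15.7 on the Torin1 array. Where a probe was well above background on only 1 array of a comparison, the fold is given as a lower bound, taken on the other array against this limit or the probe's own signal, whichever was higher. Errors are technical SDs on the log2 scale, taken from other probes of like brightness that were spotted at least 8 times on the array. They cover the spots of an array and not the spread between cultures. Levels of different probes are not compared, and sums over marker lists are given only across conditions.

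Lamtor1 itself, filed as 2400001E08Rik, had processed signals of 39460 in M2, 14688 in M1, 35232 in Torin1-treated and 833 in Lamtor1-deficient BMDMs, and after normalization the Lamtor1-deficient array held 2.34% of the M2 level. All 8 macrophage marker genes, among them Csf1r, Cd68 and Itgam, were well above background on every array, with summed normalized signals between 475 and 799. Against M2, 3 of them were 2-fold or more lower in Lamtor1-deficient BMDMs (Fcgr1 by 31.1-fold, Emr1 by 5.94-fold and Cd14 by 3.62-fold) and 2 with Torin1 (Fcgr1 by 24.4-fold and Emr1 by 7.02-fold), while in M1 BMDMs Fcgr1 was 5.62-fold higher and Csf1r and Emr1 were 2.36-fold and 2.05-fold lower. Over all genes 8.75% were 2-fold or more lower in Lamtor1-deficient M2 and 11.7% in Torin1-treated M2 BMDMs, and 30.7% were higher and 19.2% lower in M1 BMDMs. Of 8 neutrophil markers, 6 were on the array. Their sum was 87.8 in M2 BMDMs against 4.38 to 6.26 on the other arrays. Fibroblast markers summed to 41.9 in M2, 54.4 in Lamtor1-deficient, 15.3 in Torin1-treated and 16.1 in M1 BMDMs. Lymphocyte markers summed to 12.9, 13.1, 7.45 and 15.1 in that order, with 3 or 4 of 6 well above background. Of the 4 eosinophil markers, 2 were well above background on each array, and the defining granule gene Epx on none. Of the 5 mast cell and basophil markers, 2 were well above background in M2, 1 in Torin1-treated and 0 in the other BMDMs, and their sum nowhere passed 0.189. In whole cultures, fewer cells of a type and less RNA per cell cannot be told apart, and the part of these cells, macrophages included, in the receptor values was not tested.

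**Figure D1:**
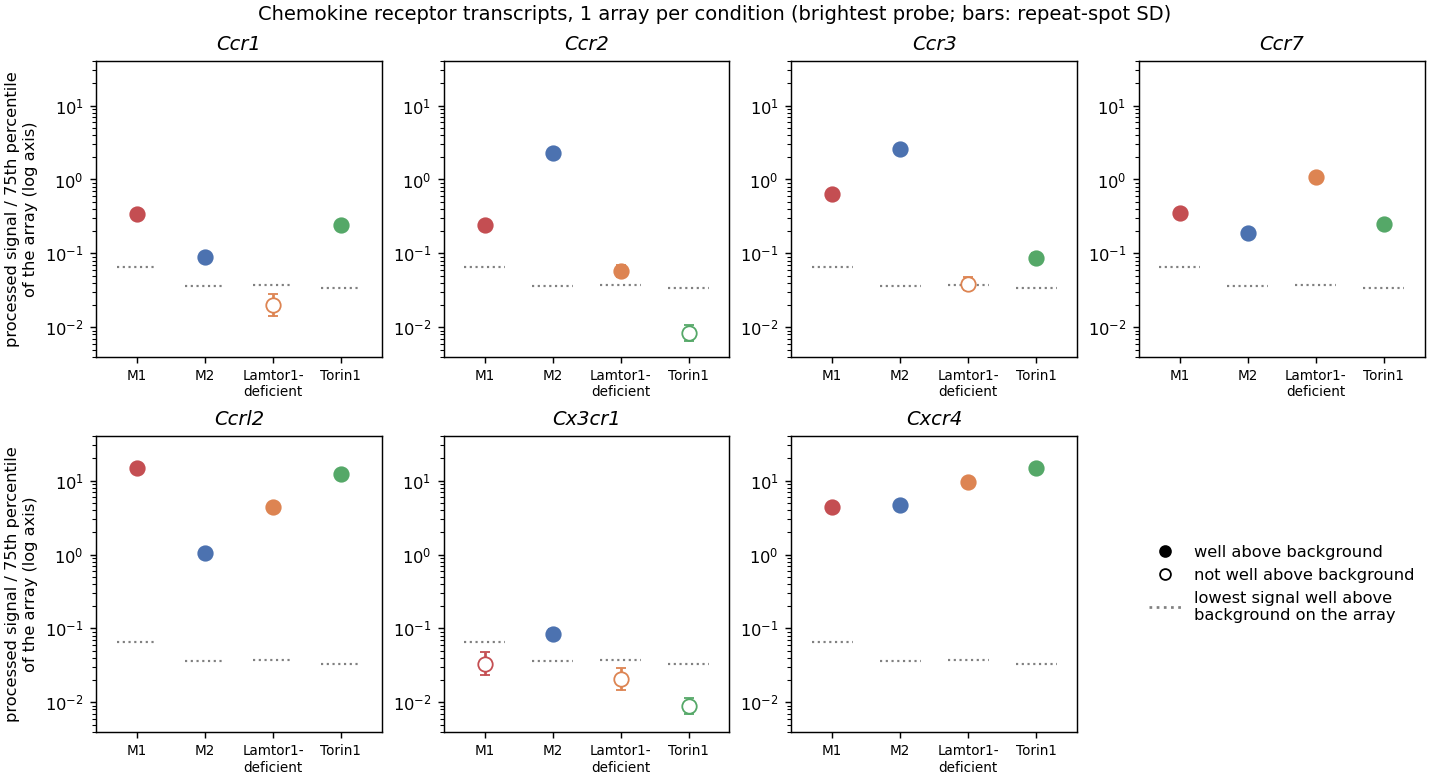
Normalized signal (log axis) of the brightest probe of each receptor on the 4 arrays, with 1 array per condition; bars are technical SDs from repeated spots, open circles are not well above background, and dotted marks are the dimmest signal well above background on that array. Ccr2, Ccr3 and Cx3cr1 stand highest in M2 BMDMs, and Ccrl2 stands lowest there, at 1.06 against 4.41 to 14.9.

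The receptors fell into different orders over the 4 conditions, as the plot of normalized signals by condition shows. Ccr2, Ccr3 and Cx3cr1 were highest in M2 BMDMs. Ccrl2 and Ccr7 were lowest in M2 BMDMs, Ccr1 was highest in M1 BMDMs, though below Torin1-treated BMDMs when arrays were shifted to their medians (log2 ratios against M2 of 1.13 and 1.22), and Cxcr4 was highest in Torin1-treated BMDMs. All 7 were well above background in M2, 6 in M1, 5 in Torin1-treated and 4 in Lamtor1-deficient BMDMs. On the normalized signal of a probe, few gaps between neighbours in these orders were within 2 technical SDs. These were the gap between M2 and M1 for Cxcr4, and those among the arrays where Cx3cr1 was not well above background. The order of Ccr7 depended on the scaling. With arrays shifted to their medians, its log2 ratios against M2 were 0.09 in M1 and 0.15 in Torin1-treated BMDMs. Both were within 2 technical SDs (SDs of 0.17 and 0.15), so M2 was then not set apart as its lowest array.

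Ccr1, Ccr3 and Ccr2 lie in a cluster of receptor genes on chromosome 9. Their promoters are shown because Ccr2 and Ccr3 were both lower than in M2 BMDMs on the other 3 arrays while Ccr1 was lower only in Lamtor1-deficient BMDMs, and that of Ccrl2 because it was higher on all 3. The sequences are the 250 bases before the start site, 5′ to 3′ in the direction of the gene, from RefSeq on GRCm38.p6. They are chr9:124101933-124102182 on the plus strand for Ccr2, chr9:124021721-124021970 on the plus strand for Ccr3, chr9:123968693-123968942 on the minus strand for Ccr1 and chr9:111057519-111057768 on the minus strand for the first of 3 start sites of Ccrl2. Capitals mark matches to the motifs named after the sequences.
Ccr2: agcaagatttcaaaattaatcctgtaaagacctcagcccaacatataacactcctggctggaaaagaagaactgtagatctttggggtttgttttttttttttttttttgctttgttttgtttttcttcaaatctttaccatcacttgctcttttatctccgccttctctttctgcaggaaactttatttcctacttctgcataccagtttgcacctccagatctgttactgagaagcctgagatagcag
Ccr3: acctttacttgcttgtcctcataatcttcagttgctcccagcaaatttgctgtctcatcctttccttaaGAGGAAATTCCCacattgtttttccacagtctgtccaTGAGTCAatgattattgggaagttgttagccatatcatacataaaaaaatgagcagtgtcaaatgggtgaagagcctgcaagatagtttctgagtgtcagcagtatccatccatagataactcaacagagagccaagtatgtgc
Ccr1: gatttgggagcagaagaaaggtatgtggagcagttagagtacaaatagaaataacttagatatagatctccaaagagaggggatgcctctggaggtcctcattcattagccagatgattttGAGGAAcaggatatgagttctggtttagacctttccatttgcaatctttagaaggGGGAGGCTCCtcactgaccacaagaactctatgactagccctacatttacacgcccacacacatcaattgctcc
Ccrl2: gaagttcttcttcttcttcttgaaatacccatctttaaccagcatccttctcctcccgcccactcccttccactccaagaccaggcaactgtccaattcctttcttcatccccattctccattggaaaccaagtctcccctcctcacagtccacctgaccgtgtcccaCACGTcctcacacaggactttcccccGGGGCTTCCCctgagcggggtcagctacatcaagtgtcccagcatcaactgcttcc

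The motifs were searched on both strands in windows of 300 bases, which add 50 bases after the start site, for the 6 members with a window in the table (8 windows). A 10-base NF-kB motif matched in 3 of these 8 windows and in 8.46% of all 32851 windows, starting at base -56 of Ccrl2, -74 of Ccr1 and -179 of Ccr3, counted from the start site. PU.1 (GAGGAA) matched in 2 of 8 and in 28.3% of all windows, at base -129 of Ccr1 and at base -181 of Ccr3, where it overlaps the NF-kB match. AP-1 (TGANTCA) matched in 1 of 8 and in 7.81% of all windows, at base -144 of Ccr3. The hypoxia element (ACGTG), whose letters are also part of the E-box (CACGTG), matched in the 3 windows of Ccrl2 and in 19.6% of all windows; 2 of these windows overlap and share a single match. STAT6, STAT (TTCNNNGAA), FOXO (GTAAACA), the E-box and an LXR repeat (AGGTCA repeated after 4 bases) matched in 0 of 8 windows, and in 6.95%, 8.30%, 3.65%, 7.15% and 0.0152% of all windows. The Ccr2 window held none of the motifs searched.

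Ccr2, the receptor for the monocyte chemoattractants Ccl2, Ccl7 and Ccl12, was read by a probe at chr9:124022948-124023007 (mm9) that begins at base 2657 of its transcript record. Its processed signal was 68.9 in M1, 1342 in M2, 31.0 in Lamtor1-deficient M2 and 3.93 in Torin1-treated M2 BMDMs. The M2 array was far above the other 3, and on the Torin1 array the probe was not well above background. Ccr2 was 39.0-fold lower in Lamtor1-deficient than in M2 BMDMs (log2 ratio -5.28 ± 0.28, technical SD), and at least 67.3-fold lower with Torin1. It was 9.39-fold lower in M1 than in M2 BMDMs (log2 ratio -3.23 ± 0.18). Only 70 of the 23658 genes had a lower measured ratio than Ccr2 for Lamtor1-deficient against M2 BMDMs. After normexp background correction with an offset of 50, which shrinks ratios of dim signals, its log2 ratios were -3.73 for Lamtor1-deficient, -4.02 for Torin1-treated and -2.50 for M1 BMDMs, so the Torin1 bound did not hold under it. The neutrophil marker sum, given above, was also highest in M2 BMDMs, mostly through S100a9 and S100a8 (normalized signals of 65.3 and 14.7). Of the 6 markers, 5 were 2-fold or more lower in Lamtor1-deficient than in M2 BMDMs, where 8.75% of all genes were. The other, Cxcr2, was higher on its measured ratio, where 8.88% of all genes were, and was not well above background in M2 BMDMs. The part of such cells in the Ccr2 values was not tested.

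Ccr3, the eotaxin receptor, was read at chr9:123945225-123945284 (mm9), from base 2076 of its transcript record. The processed signal was 183 in M1, 1552 in M2, 20.9 in Lamtor1-deficient M2 and 41.0 in Torin1-treated M2 BMDMs. As for Ccr2, the M2 array was highest and the M1 array second, but here it was the Lamtor1-deficient array that was not well above background. Ccr3 was at least 66.8-fold lower in Lamtor1-deficient BMDMs and 29.9-fold lower with Torin1 (log2 ratio -4.90 ± 0.21), and 4.09-fold lower in M1 than in M2 BMDMs (log2 ratio -2.03 ± 0.10). Under normexp the log2 ratio was -3.97 in the Lamtor1-deficient comparison and -3.57 in that of Torin1, so the Lamtor1-deficient bound did not hold under it. Eosinophil markers, which name the cell type best known for this receptor, summed to 2.76 in M2, 10.1 in Lamtor1-deficient, 3.11 in Torin1-treated and 0.381 in M1 BMDMs. Siglec5, with normalized signals of 2.63, 9.99, 2.95 and 0.108 in the same sequence, made up nearly all of this sum on the arrays with IL-4. The order of the sum is thus that of 1 gene. The granule gene Prg2 was well above background in M2 and Lamtor1-deficient BMDMs, with processed signals of 52.4 and 26.0. The receptor gene Il5ra was so in M1 and Torin1-treated BMDMs, with processed signals of 52.6 and 65.4. The 3 genes thus had different orders. The part of such cells in the Ccr3 values was not tested.

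Ccr1, a receptor for Ccl3, Ccl5 and related chemokines, was read at chr9:123877790-123877849 (mm9), from base 1940 of its transcript record. Its processed signal was 98.5 in M1, 52.7 in M2, 10.67 in Lamtor1-deficient M2 and 115 in Torin1-treated M2 BMDMs. The Lamtor1-deficient array was lowest and not well above background, whereas the Torin1 array stood above M2. Against M2, Ccr1 was thus at least 2.37-fold lower in Lamtor1-deficient BMDMs and 2.76-fold higher with Torin1 (log2 ratio 1.46 ± 0.22). It was also 3.88-fold higher in M1 BMDMs (log2 ratio 1.95 ± 0.24), and at least 6.54-fold higher with Torin1 than in Lamtor1-deficient BMDMs. These signals were dim. After normexp background correction with an offset of 50 the ratios for Lamtor1-deficient and Torin1-treated BMDMs kept their signs but were -0.45 and 0.92, both under 2-fold, and that of Torin1-treated against Lamtor1-deficient BMDMs was 1.37.

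Cx3cr1, the fractalkine receptor, was near background. The brighter probe, at chr9:119957811-119957870 (mm9), gave processed signals of 9.59 in M1, 50.3 in M2, 11.1 in Lamtor1-deficient M2 and 4.17 in Torin1-treated M2 BMDMs, and only the M2 array was well above background. Cx3cr1 was at least 2.26-fold lower in Lamtor1-deficient BMDMs, at least 2.52-fold lower with Torin1 and at least 1.29-fold lower in M1 BMDMs. The probe at chr9:119959018-119959077, which lies nearer the 5′ end of the transcript, was not well above background on any array, with signals of 5.09 to 6.69, so the 2 probes disagree for M2 BMDMs. A further probe filed under the transcript cluster TC1715571 shares 55 bases with the brighter one and gave 40.7 in M2 BMDMs, where alone it was well above background, and 4.37 to 5.33 elsewhere. This probe overlaps the brighter one and is no independent measurement of the gene. Under normexp the M1 ratio of Cx3cr1 turned to 0.24, and those for Lamtor1-deficient and Torin1-treated BMDMs shrank to -0.41 and -0.50.

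Ccr7, the receptor that guides dendritic cells and lymphocytes to lymph nodes, was read at chr11:99005551-99005610 (mm9), from base 1877 of its transcript record. The processed signal was 101 in M1, 111.5 in M2, 586 in Lamtor1-deficient M2 and 116 in Torin1-treated M2 BMDMs. The Lamtor1-deficient array was highest, and all 4 were well above background. Ccr7 was 5.83-fold higher in Lamtor1-deficient than in M2 BMDMs (log2 ratio 2.54 ± 0.12) but 1.31-fold higher with Torin1 (log2 ratio 0.39 ± 0.15), which is under 2-fold. In M1 BMDMs it was 1.88-fold higher (log2 ratio 0.91 ± 0.17), also under 2-fold. With arrays shifted to their medians, the log2 ratios for Torin1-treated and M1 BMDMs against M2 were 0.15 and 0.09, both within 2 technical SDs. Torin1-treated BMDMs were 4.44-fold below Lamtor1-deficient BMDMs (log2 ratio -2.15 ± 0.12). Among dendritic cell markers, Ly75 was not well above background in M2 BMDMs and had processed signals of 127 in M1, 78.2 in Lamtor1-deficient M2 and 109.9 in Torin1-treated M2 BMDMs. Flt3 was well above background in M1 and Torin1-treated BMDMs, and Xcr1 on no array. Zbtb46 had processed signals of 227 in M1, 56.1 in M2, 32.1 in Lamtor1-deficient M2 and 23.9 in Torin1-treated M2 BMDMs. The summed list was 296 in M2 against 204, 128 and 3.59 in Lamtor1-deficient, Torin1-treated and M1 BMDMs. The macrophage-expressed Itgax alone held 295.9, 203.8, 128.0 and 2.17 of these sums, so they mainly describe that gene. The part of such cells in the Ccr7 values was not tested.

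Cxcr4, the receptor for Cxcl12, was read at chr1:130485079-130485138 (mm9), from base 1451 of its transcript record. The processed signal was 1265 in M1, 2765 in M2, 5064 in Lamtor1-deficient M2 and 6941 in Torin1-treated M2 BMDMs. Both arrays on which the Lamtor1 and mTOR pathway was disturbed were above M2. Cxcr4 was 2.03-fold higher in Lamtor1-deficient BMDMs (log2 ratio 1.02 ± 0.08) and 3.18-fold higher with Torin1 (log2 ratio 1.67 ± 0.08). The first of these is at the 2-fold limit, and its log2 ratio was 0.96 in the lowest of the alternatives. After normalization M1 and M2 BMDMs differed by a log2 ratio of -0.08 ± 0.07, within 2 technical SDs. This ratio depended on the scaling, and was -0.90 with arrays shifted to their medians and 0.01 under quantile normalization.

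Ccrl2, the atypical chemerin-binding receptor, was read at chr9:110957397-110957456 (mm9), from base 1992 of its transcript record. Its processed signal was 4267 in M1, 632 in M2, 2366 in Lamtor1-deficient M2 and 5865 in Torin1-treated M2 BMDMs. M2 was the lowest of the 4 arrays by a wide margin. Ccrl2 was 4.15-fold higher in Lamtor1-deficient BMDMs (log2 ratio 2.05 ± 0.08), 11.7-fold higher with Torin1 (log2 ratio 3.55 ± 0.09) and 14.0-fold higher in M1 BMDMs (log2 ratio 3.81 ± 0.09). Torin1-treated BMDMs were 2.83-fold above Lamtor1-deficient BMDMs. For Torin1 against M2, 156 of the 23658 genes had a higher measured ratio.

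**Figure D2:**
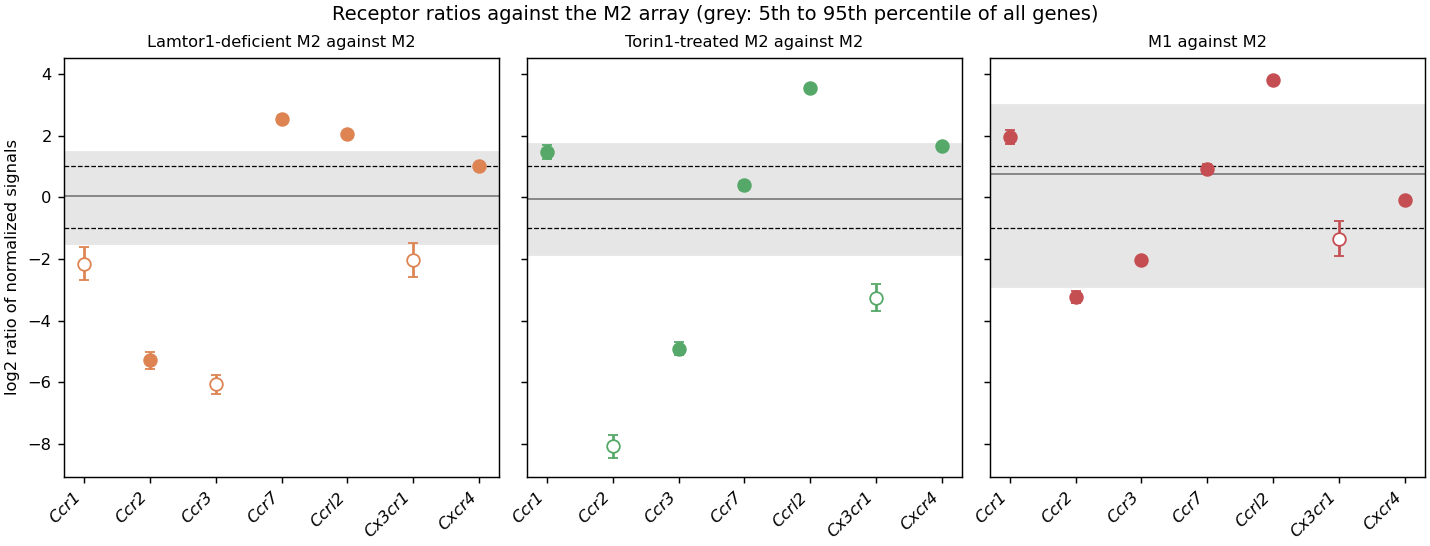
Log2 ratio of normalized signals of each receptor against the M2 array for the 3 other conditions; bars are technical SDs, open circles were well above background in M2 only, dashed lines mark 2-fold, the grey line is the median of all 23658 genes and the grey band their 5th to 95th percentile. In the Lamtor1-deficient panel all receptors but Cxcr4 are plotted outside the band, in the Torin1 panel Ccr2, Ccr3, Ccrl2 and Cx3cr1 are, and in the M1 panel Ccr2 and Ccrl2 are; open circles are measured ratios, and the bounds of Ccr1 and Cx3cr1 (2.37-fold and 2.26-fold for Lamtor1-deficient and 2.52-fold for Torin1-treated BMDMs, the last for Cx3cr1) lie inside it.

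For Lamtor1-deficient against M2 BMDMs, 3 of the 7 receptors were 2-fold or more higher (Ccr7, Ccrl2 and Cxcr4) and 4 were 2-fold or more lower (Ccr1, Ccr2, Ccr3 and Cx3cr1). Over all genes, 8.88% were 2-fold or more higher and 8.75% lower, and 21% of the 15565 genes well above background on at least 1 of these arrays differed either way. The median log2 ratio of the receptors was -2.03, or -1.18 with dim signals raised to a floor, and that of all genes 0.04. Of the 4 lower receptors only Ccr2 was well above background on both arrays, and over the 4 receptors that were so the median was 1.54. After normexp correction 4 receptors were past 2-fold, 2 in each direction.

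For Torin1-treated against M2 BMDMs, 3 receptors were 2-fold or more higher (Ccr1, Ccrl2 and Cxcr4) and 3 lower (Ccr2, Ccr3 and Cx3cr1), while Ccr7 was under 2-fold. The shares over all genes were 14.3% higher and 11.7% lower, and 30.3% either way among the 15957 genes well above background on at least 1 array. The median log2 ratio was 0.39 for the receptors and -0.05 for all genes. This comparison and that of Lamtor1-deficient BMDMs share the M2 array, so a high or low value there moves both.

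For M1 against M2 BMDMs, 2 receptors were 2-fold or more higher (Ccr1 and Ccrl2) and 3 lower (Ccr2, Ccr3 and Cx3cr1), with Ccr7 and Cxcr4 under 2-fold. Cx3cr1 was not well above background in M1 BMDMs and was lower by at least 1.29-fold as a bound, so its count here rests on the measured ratio. This pair differed widely. Over all genes 30.7% were higher and 19.2% lower, and 56.3% of the 16069 genes well above background on at least 1 array differed either way. The median log2 ratio of all genes was 0.75 here and that of the receptors -0.08. When each array was shifted to its median instead, the median of all genes was -0.07. On the log2 scale Cxcr4 was then -0.90, Ccr7 0.09, Ccr1 1.13, Ccrl2 2.99, Ccr3 -2.85 and Ccr2 -4.05. The signs of these 6 ratios held while the sizes moved, and that of Ccr7 came within 2 technical SDs (SD of 0.17) of 0.

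The Torin1-treated and Lamtor1-deficient arrays were also compared with each other, which does not involve the M2 array. Torin1-treated BMDMs were 2-fold or more higher for 3 receptors (Ccr1, Ccr3 and Ccrl2) and lower for 3 (Ccr2, Ccr7 and Cx3cr1), where Cx3cr1 was well above background on neither array and has no fold. Over all genes 12.8% were higher and 11.6% lower, and 28.6% of the 15937 genes well above background on at least 1 array differed either way. The median log2 ratio was 0.64 for the receptors and -0.12 for all genes. The bounds were at least 2.23-fold higher for Ccr3 and at least 1.73-fold lower for Ccr2, so the latter does not reach 2-fold as a bound. Under normexp their log2 ratios were 0.40 and -0.29, both under 2-fold.

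**Figure D3:**
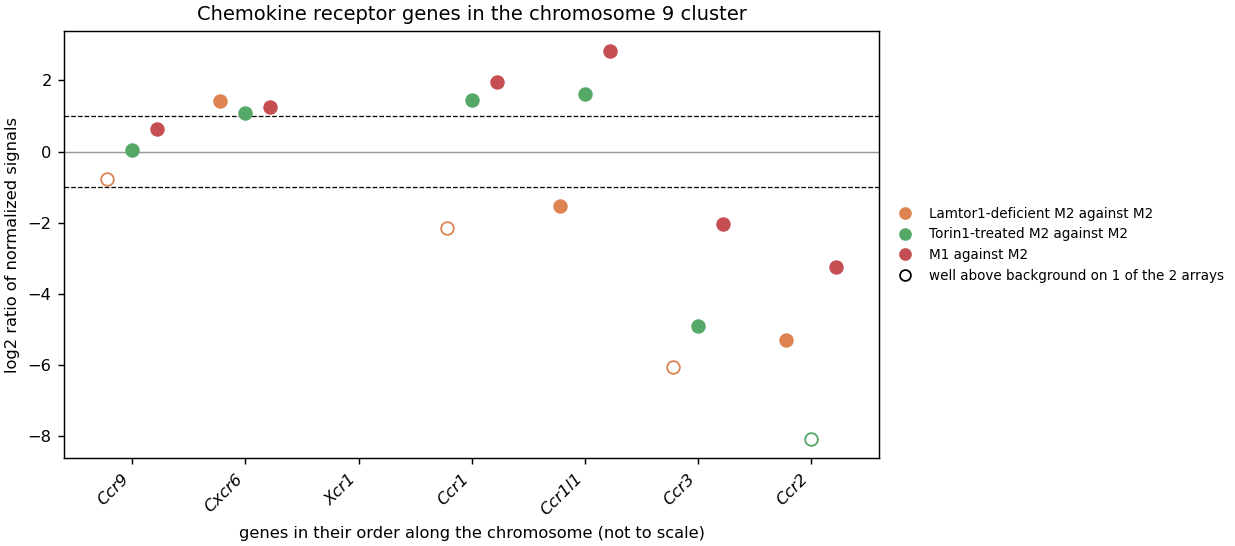
Log2 ratio against the M2 array of 7 receptor genes in the chromosome 9 cluster, placed in their order along the chromosome and not to scale; dashed lines mark 2-fold, open circles were well above background on 1 of the 2 arrays, and Xcr1 was so on none and has no point. Ccr3 and Ccr2 lie below 0 for all 3 conditions, while Ccr1 and Ccr1l1 lie above 0 for Torin1-treated and M1 BMDMs.

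Of the 7 receptors, 5 lie on chromosome 9, and 3 of these within a cluster of receptor genes. The probes of Ccr1 and Ccr3 are 67.4 kb apart (mm9) and those of Ccr3 and Ccr2 77.7 kb. Ccr1l1, a close relative of Ccr1 next to it, had 389 in M1, 113 in M2, 35.5 in Lamtor1-deficient M2 and 274 in Torin1-treated M2 BMDMs. On the normalized scale its order over the conditions was that of Ccr1, and it was 2.86-fold lower in Lamtor1-deficient and 3.07-fold higher in Torin1-treated than in M2 BMDMs. How far the probe of either paralogue also reads the other was not tested.

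Among 18 other chemokine receptors, 4 were 2-fold or more higher and 3 lower in Lamtor1-deficient than in M2 BMDMs, of 10 well above background on at least 1 of the arrays. With Torin1 3 were higher and 2 lower of 9, and in M1 BMDMs 8 were higher and 1 lower of 11. Cxcr2 and Ccrl1 in Lamtor1-deficient and Ccrl1 in Torin1-treated BMDMs do not reach 2-fold as bounds, so their counts rest on measured ratios. Over all genes well above background the shares either way were 21%, 30.3% and 56.3%. Over all 18, receptors at background included, the median log2 ratios were 0.04, 0.0018 and 0.83. Those of all genes were 0.04, -0.05 and 0.75. The M1 median lay between the ratios of Ccr4 (0.83) and Gpr1 (0.84), which were well above background on neither array. It therefore does not describe the detected receptors. Cxcr1, a receptor for neutrophil-attracting CXC chemokines, was not well above background in M2 BMDMs and had processed signals of 2005 in Lamtor1-deficient, 333 in Torin1-treated and 54.1 in M1 BMDMs. That is at least 103-fold higher in Lamtor1-deficient and at least 19.5-fold higher in Torin1-treated BMDMs. Cxcr7, the second receptor of Cxcl12, was well above background in Lamtor1-deficient BMDMs alone, with a processed signal of 157 and at least 8.04-fold above M2. Cmklr1, the signalling receptor for chemerin, was at least 5.53-fold lower in Lamtor1-deficient and at least 5.98-fold lower in Torin1-treated than in M2 BMDMs, the opposite direction to Ccrl2. Ccr8 was 3.17-fold and Ccr6 at least 3.01-fold higher in M1 than in M2 BMDMs.

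**Figure D4:**
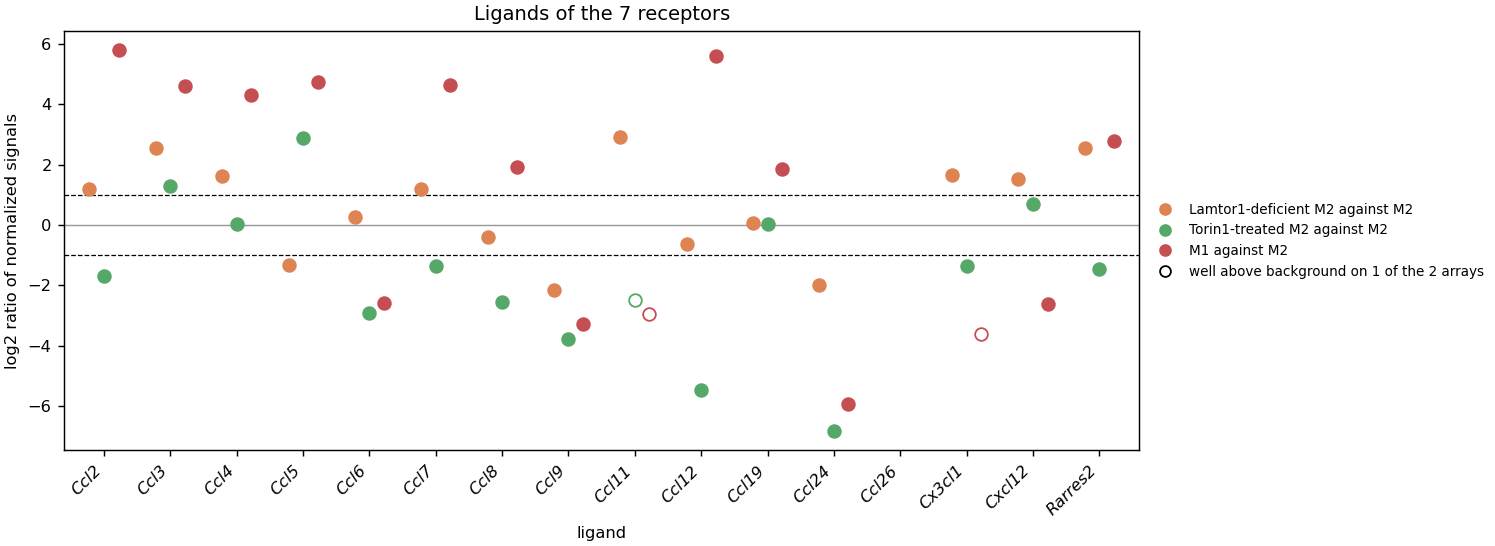
Log2 ratio against the M2 array of 16 ligands of the receptors for the 3 other conditions; dashed lines mark 2-fold, and open circles were well above background in M2 only. Ccl26 was well above background on no array and has no point, and 10 ligands lie below -1 for Torin1-treated BMDMs against 3 for Lamtor1-deficient BMDMs.

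Of 17 ligands of these receptors 16 were on the array and 15 well above background. In Lamtor1-deficient BMDMs 8 were 2-fold or more higher than in M2 and 3 lower, with Torin1 2 were higher and 10 lower, and in M1 BMDMs 9 were higher and 6 lower. Among all genes well above background on at least 1 array, 21%, 30.3% and 56.3% differed either way in these comparisons. The ligands' median log2 ratios were 0.73, -1.40 and 1.89, where those of all genes were 0.04, -0.05 and 0.75. Against Lamtor1-deficient BMDMs, Torin1-treated BMDMs had 1 ligand 2-fold or more higher and 12 lower, where 28.6% of all such genes differed. Ccl2 had processed signals of 263320 in M1, 9871 in M2, 20432 in Lamtor1-deficient M2 and 2416 in Torin1-treated M2 BMDMs, and Ccl7 was likewise 2.29-fold higher in Lamtor1-deficient and 2.54-fold lower in Torin1-treated than in M2 BMDMs. Ccl12 was 48.2-fold higher in M1, 1.57-fold lower in Lamtor1-deficient and 44.0-fold lower in Torin1-treated than in M2 BMDMs, and over the 3 arrays with IL-4 its order was that of Ccr2.

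The eotaxins that bind Ccr3 differed from each other. Ccl24 was highest in M2 BMDMs, as Ccr3 was, with processed signals of 79.3 in M1, 10162 in M2, 2300.0 in Lamtor1-deficient M2 and 70.1 in Torin1-treated M2 BMDMs, and was 115-fold lower with Torin1. Ccl11 was 7.51-fold higher in Lamtor1-deficient than in M2 BMDMs and at least 3.26-fold lower with Torin1. Ccl5, which binds Ccr1 and Ccr3, was 2.51-fold lower in Lamtor1-deficient, 7.33-fold higher in Torin1-treated and 26.6-fold higher in M1 BMDMs. For the remaining receptors, the ligands chosen for this after their values were seen were Cx3cl1, Cxcl12, Rarres2 (chemerin) and the Ccr7 ligand Ccl19. In Lamtor1-deficient BMDMs the first 3 were 3.15-fold, 2.86-fold and 5.92-fold higher than in M2. With Torin1, Cx3cl1 was 2.56-fold and Rarres2 2.74-fold lower, and Cxcl12 1.61-fold higher. Ccl19 was 1.05-fold higher in Lamtor1-deficient and 1.03-fold higher in Torin1-treated BMDMs, both under 2-fold, and 3.62-fold higher in M1 BMDMs. Fibroblast markers, which name a cell type known to make Cxcl12, had 3 of 5 genes 2-fold or more higher in Lamtor1-deficient BMDMs (Dcn, Pdgfra and Thy1) and 0 lower, where 8.88% of all genes were higher. With Torin1 0 were higher and 2 lower, where 11.7% of all genes were lower, and in M1 BMDMs 1 was higher and 3 lower, where 30.7% and 19.2% were. Their part was not tested.

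Downstream of the receptors, all 31 signalling and desensitization genes were on the array and well above background on at least 1 array of each comparison. In Lamtor1-deficient BMDMs 2 were 2-fold or more higher than in M2 and 5 lower, with Torin1 4 were higher and 5 lower, and in M1 BMDMs 4 were higher and 11 lower. The shares over all genes well above background, 21%, 30.3% and 56.3% either way, were close to or above those of this list. Its median log2 ratios were -0.29, -0.20 and -0.54, against 0.04, -0.05 and 0.75 for all genes. Rgs1, which speeds the shut-off of G protein signals, was 2.53-fold higher in Lamtor1-deficient, 10.2-fold higher in Torin1-treated and 12.2-fold higher in M1 than in M2 BMDMs. Pik3r5, the p101 regulatory subunit of PI3 kinase gamma, was 2.52-fold higher in Lamtor1-deficient and 6.13-fold higher in Torin1-treated BMDMs. Rgs18 was 4.31-fold lower with Torin1 and at least 56.8-fold lower in M1 BMDMs. Pik3cg, the catalytic subunit of PI3 kinase gamma, was 14.1-fold lower in M1 and 2.06-fold higher in Torin1-treated than in M2 BMDMs, the G protein subunit Gng2 was 14.2-fold higher in M1, and Nup85, whose protein also binds the Ccr2 tail, was 8.46-fold lower in M1.

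For each receptor, genes with the most similar pattern were found by the root-mean-square (RMS) difference of centred log2 signals over the 4 arrays, among 14272 genes. Signals below the dimmest one well above background were raised to it. This is a description over 4 points without replicates. For Ccr2, Adam18 (RMS 0.39) and Dok2 (0.44) are named, and Dok2, which encodes an adaptor protein, had processed signals of 10314 in M1, 86216 in M2, 3454 in Lamtor1-deficient M2 and 1617 in Torin1-treated M2 BMDMs. For Ccr3 they were Retn (0.22), Clec4b1 (0.29) and Tgfbi (0.40), of which Tgfbi, an extracellular matrix protein gene, had 1723 in M1, 28315 in M2, 265 in Lamtor1-deficient M2 and 371 in Torin1-treated M2 BMDMs. The nearest genes of Ccrl2 were Tnfsf15 (0.07), D630024D03Rik (0.19) and Ctla2a (0.25), and those of Cxcr4 were Parvg (0.07), 6430550D23Rik (0.10) and Fblim1 (0.11). Ccr1 was nearest to Gm4123 (0.07), 1700023D09Rik (0.13) and Olfr1443 (0.13), and Ccr7 to Cck (0.10), Sec22a (0.12) and Zfp354a (0.14). Adam18 and Sec22a were well above background on 2 arrays, Zfp354a on 1 and Retn on 3, so that their likeness rests in part on raised signals. For Cx3cr1 the nearest were St8sia6, Ociad2 and Prdm13, all well above background in M2 BMDMs alone, so that the likeness rests on that 1 array.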

How the data were processed

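The authors deposited the scanner output of 4 Agilent 1-colour arrays, with intensities per spot, and a series table of the same processed signals, which differed from the scanner files by at most 0.497%. Per the file headers, Feature Extraction 10.7.3.1 subtracted background and corrected spatial trends. The submitters' notes and the methods name version 10.5.1.1. Following the study's methods, signals were set to at least 1, divided by the 75th percentile over non-control probes, taken to log2, and called at 2-fold. Outlier spots were left out and spots of a probe averaged. A probe with several spots was well above background where most of its spots were. The brightest probe (highest mean log2 signal) stood for a gene. Symbols followed the array design, and of the genes measured 82.5% had a symbol in the RefSeq table. Probe coordinates are on mm9, for which no annotation was used, so exon and UTR positions were not analysed here. No test was run, since each condition had 1 array.

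The receptors and gene lists were chosen with earlier results of these data known. List genes given with values are among the 6 with the largest ratio or bound in each list, apart from those said to be chosen after their values were seen and those at background, and up to 3 of the nearest genes are named for each receptor. Some genes are not reported here. Lists covered other receptors, ligands, signalling genes and markers of macrophages, neutrophils, eosinophils, dendritic cells, mast cells and basophils, lymphocytes and fibroblasts. The neutrophil list holds Cxcr2 and the dendritic cell list Xcr1, which are also among the other receptors. Alternatives were median and quantile normalization, the percentile over detected probes, normexp, the series table, outlier spots kept, the mean of probes, a floor, detection filters and a 3-fold limit. The procedure was tested on simulated data, with changes planted only in genes well above background on every array, so that the test does not cover dim signals. Calculations used Python 3.11.15, NumPy 2.4.6, pandas 2.3.3, matplotlib 3.10.9, R 4.3.3 and limma 3.58.1.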

Additional observations from a re-analysis of the deposited data

How the results depend on the processing

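Of 28 receptor ratios, 24 were past 2-fold. Of these, 15 stayed past 2-fold under all 8 alternatives that rescaled, floored or averaged the signals, 9 fell under it in at least 1, and 1 changed sign, namely Cx3cr1 for M1 against M2 (0.24 under normexp with an offset of 50). Of the 4 ratios under 2-fold, 1 changed sign, that of Cxcr4 for M1 against M2. Under normexp, 4 receptors were past 2-fold for Lamtor1-deficient against M2 BMDMs and 3 for Torin1-treated against Lamtor1-deficient BMDMs, in place of 7 and 6, and the receptors' median log2 ratio was -0.41 for Lamtor1-deficient and 0.24 for M1 BMDMs against M2. With only receptors well above background on every array compared, the counts for the same comparisons were 4 and 2, and the medians against M2 were 1.54 for Lamtor1-deficient, 1.46 for Torin1-treated and 0.42 for M1 BMDMs, the first with its sign reversed because Ccr1, Ccr3 and Cx3cr1 drop out. The M1 median, -0.08 as reported, thus also changed sign under both of these settings, and it did so under quantile normalization (0.01). The median shift gave medians of 0.15 for Torin1-treated and -0.90 for M1 BMDMs. For Lamtor1-deficient BMDMs the mean of all probes gave -0.99 and the floor -1.18. At a 3-fold limit 3 receptors differed between Torin1-treated and Lamtor1-deficient BMDMs. Dim signals left Ccr1, Ccr2, Ccr3 and Cx3cr1 with a bound in at least 1 comparison. No array could be left out, since each condition has 1. No paired analysis was possible because each condition has 1 sample.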
